A study of Macaca mulatta with 8 samples.

Results

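Collagen and laminin chains, the structural proteins of basement membranes and of the connective tissue matrix, were followed across the cell classes of the infant macaque brain by single-nucleus RNA sequencing. The members were all genes of the count matrix whose symbol has the form of a collagen chain (COL, a number, A, a number) or of a laminin chain (LAMA, LAMB or LAMC and a number). This gave 51 of 21748 genes, 41 collagen chains and 10 laminin chains. A further 2 chains, COL15A1 and COL9A3, were carried in the matrix under a gene ID only and were found through a table of symbols; they are given apart. COL7A1, LAMA1 and LAMA5 were not analysed here. The members were picked by the form of their name and not by a measured value, though earlier results of these data were known.

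Collagens are trimers of alpha chains wound into a triple helix. Type IV collagen forms the sheet-like network of basement membranes, the fibrillar collagens form the fibres of connective tissue, fibril-associated collagens coat those fibres, and transmembrane collagens are anchored in the cell membrane. Laminins are heterotrimers of 1 alpha, 1 beta and 1 gamma chain that polymerise on the cell surface, bind integrins and dystroglycan, and start the assembly of a basement membrane. In the brain, basement membranes line the vessels and the pial surface, and fibrillar collagens are known mainly from the meninges and from the adventitia of larger vessels.

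The study compared 2 groups of male rhesus macaques. Tissue of 2 control animals was mixed and divided into 4 samples, and tissue of 1 animal given sevoflurane, an inhaled anaesthetic, was divided into 4 samples. The anaesthetic was given at about 2.5 to 3% for 4 h at about postnatal day 7 and again at 14 and 28 days. Nuclei were isolated from frozen tissue, labelled as hippocampus in 1 field and as amygdala in another, and libraries were made with 10x Genomics 3' chemistry of version 3. Each group was therefore 1 pool, and its 4 samples were divisions of the same tissue.

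The matrix held 331133661 UMIs (unique molecular identifiers, each standing for 1 captured RNA molecule) in 59749 barcodes from 8 libraries, with 35806547 to 47007082 UMIs per library. A library is known here only by the number from 1 to 8 that ends each barcode, and no source used here ties those numbers to the control or sevoflurane samples. No comparison of sevoflurane with control was made for this reason, and the whole matrix counts as 1 sample, so that differences between classes carry no p-value. The libraries stood in 2 sets: the median was 3189 to 3426 UMIs per barcode in libraries 1 to 4 and 5730 to 5831 in libraries 5 to 8. 429 barcode sequences occurred in more than 1 library. After filtering and removal of 3576 predicted doublets, 54644 nuclei remained.

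Nuclei were clustered without any collagen or laminin gene among the variable genes, and clusters were named from marker genes, so every class name below stands for a class like that cell type. The classes of most interest were small: 443 endothelial-like nuclei, 133 mural-like nuclei (pericytes or smooth muscle) and 261 fibroblast-like nuclei, against 3554 oligodendrocyte precursor-like nuclei, 8241 astrocyte-like nuclei and 29094 neurons of 5 classes. Endothelial markers summed to 10267 CPM (counts of a gene scaled to the total UMIs of the class) in endothelial nuclei, 262 in mural nuclei and 452 in fibroblast nuclei. Mural markers summed to 4131 CPM in mural nuclei, 1273 in endothelial nuclei and 351 in fibroblast nuclei, and fibroblast markers to 11244 CPM in fibroblast nuclei against 744 in mural and 530 in endothelial nuclei. Of 12 mural markers in the matrix, 11 reached 10 CPM in endothelial nuclei too and none was at 0 there. The 10 astrocyte markers summed to 2581 CPM in fibroblast nuclei, 1211 in mural and 846 in endothelial nuclei, against 15801 in astrocytes, with 1 marker at 0 in fibroblast and in mural nuclei. The part of mural or astrocyte RNA in the values of the other classes was not tested. One endothelial cluster of 117 nuclei had a median of 5035 UMIs, against 2310 over the class, and 106 of its nuclei came from libraries 1 to 4; ratios that move by over 1.5 times without it are given below. A CPM value in a single library is printed where at least 20 nuclei of the class came from that library, which held in 8 libraries for endothelial nuclei, in libraries 1, 2 and 5 to 8 for fibroblast nuclei and in libraries 1, 5 and 7 for mural nuclei.

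Of the 51 chains, 39 reached 10 CPM in at least 1 class of 50 nuclei or more. For 27 of these 39 the highest class was fibroblast (16 chains), mural (9 chains) or endothelial (COL4A1 and COL4A2); over all 13070 genes that reached 10 CPM the share with its highest level in these 3 classes was 30.1%. The other 12 chains had their highest level elsewhere: COL9A1, COL9A2 and COL23A1 in newly formed oligodendrocytes, COL25A1 and LAMA3 in granule neurons, COL19A1 and COL24A1 in inhibitory neurons, COL16A1 and COL21A1 in ependymal nuclei, COL20A1 in precursors, COL27A1 in astrocytes and COL26A1 in excitatory neurons other than granule and pyramidal. No chain was highest in oligodendrocytes, microglia, cycling nuclei, pyramidal neurons or immature neurons. The 12 chains below 10 CPM in every class included COL2A1, COL6A5, COL6A6, COL8A2, COL10A1, COL11A2, COL17A1, COL22A1, COL28A1, LAMB3 and LAMB4. Nearest below the threshold were COL28A1 at 9.9 and LAMB4 at 9.4 CPM, and nearest above it were COL20A1 at 31.3 and COL6A1 at 35.1 CPM. Of the 2 chains carried under a gene ID, COL15A1 was at 105 CPM in fibroblast nuclei and 99.7 in immature neurons, and COL9A3 was highest in precursors at 43.8 CPM, above 23.0 in oligodendrocytes.

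**Figure D1:**
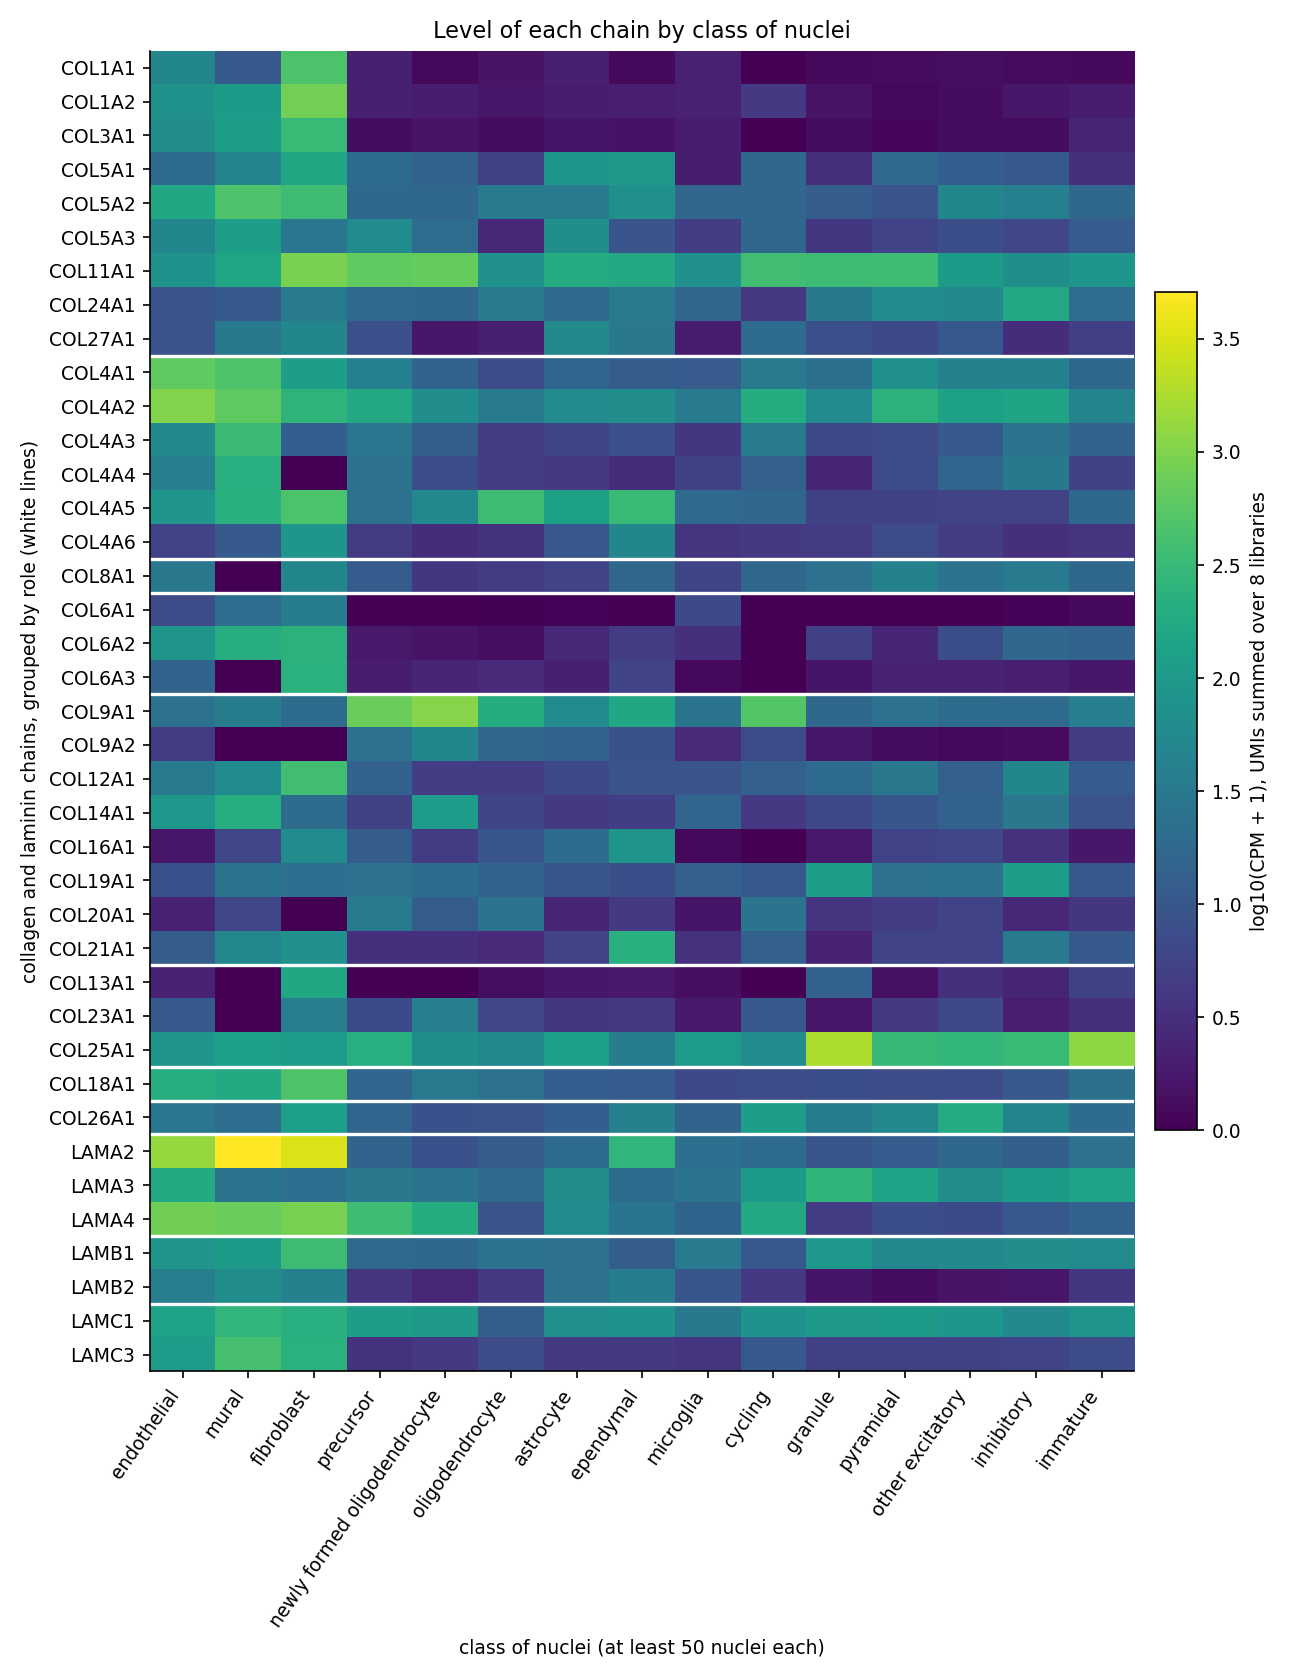
Level of the 39 chains that reached 10 CPM (rows, grouped by role, with white lines between roles) in 15 classes of nuclei (columns); colour is log10 of CPM plus 1 from summed UMIs. The fibroblast, mural and endothelial columns hold the highest value for 27 of the 39 rows, COL9A1 stands out in the precursor and newly formed oligodendrocyte columns, and COL25A1 in the granule and immature columns.

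Type IV collagen has 6 chains, and their levels were divided between classes by pairs. COL4A1 and COL4A2, which form the common network of nearly all basement membranes, were found together in endothelial and mural nuclei. COL4A1 was at 627 CPM in endothelial nuclei, with 108 in the lowest library, a median of 489 and 1149 in the highest. Libraries 1 to 4 gave 685 to 1149 CPM and libraries 5 to 8 gave 108 to 293, so the 2 sets did not overlap within this class. The endothelial cluster of high counts held COL4A1 at 897 CPM, and the other endothelial sub-clusters, of 198 and 128 nuclei, at 423 and 189 CPM. That cluster held 106 of the 271 endothelial nuclei of libraries 1 to 4 and 11 of the 172 of libraries 5 to 8. The difference between the library sets without this cluster was not tested. Mural nuclei held COL4A1 at 607, 202 and 323 CPM in libraries 1, 5 and 7, and fibroblast nuclei at 36.4 to 267 CPM, so mural and fibroblast ranges overlapped. COL4A2 ran from 368 through a median of 862 to 1811 CPM in endothelial nuclei and was 817, 374 and 180 CPM in mural nuclei of libraries 1, 5 and 7. COL4A2 was also present in neurons and precursors: 163 to 359 CPM in pyramidal neurons and 153 to 263 CPM in precursors, both above the 17.8 to 82.0 CPM of oligodendrocytes in every library.

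COL4A3 and COL4A4, chains of the second type IV network known from the kidney glomerulus, were highest in mural nuclei. COL4A3 was at 251, 144 and 682 CPM in mural nuclei of libraries 1, 5 and 7, and at 0 to 24.3 CPM in fibroblast nuclei and 0 to 98.1 CPM in endothelial nuclei, so the mural libraries lay above all of those. COL4A4 was at 147, 173 and 395 CPM in mural nuclei of the same libraries and had no UMI in fibroblast nuclei of any library. Among whole classes, its highest value outside the vascular classes was 48.9 CPM, in inhibitory neurons of library 3. Single clusters went higher: excitatory clusters 36 and 44 held COL4A4 at 203 and 150 CPM, against 216 CPM in mural nuclei as a whole. COL4A5 was found well beyond the vessels: 460 CPM in fibroblast nuclei (369 to 708 over libraries, median 417), 351 in oligodendrocytes (189 to 364, median 320), 326 in ependymal nuclei (265 to 426, median 301) and 127 in astrocytes (70.4 to 172, median 111). The ependymal range overlapped those of fibroblasts and oligodendrocytes, which did not overlap each other, while precursors held 14.0 to 54.5 CPM, below every library of those 4 classes. COL4A6, the partner of COL4A5, reached 10 CPM in 3 classes only, at 87.7 CPM in fibroblast, 49.4 in ependymal and 10.3 in mural nuclei. The mural value rests on 2 UMIs, fewer than the 3 counts that stand for 15.4 CPM in that class.

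Of the laminin alpha chains, LAMA2 marked mural nuclei and fibroblasts. LAMA2 is the alpha chain of laminin-211, whose loss causes a congenital muscular dystrophy. It was at 5570, 4951 and 4991 CPM in mural nuclei of libraries 1, 5 and 7. Fibroblast nuclei held 7843 and 5563 CPM in libraries 1 and 2 and 1750 to 2044 CPM in libraries 5 to 8, so the classes overlapped through the first 2 libraries. Endothelial nuclei ran from 184 through a median of 1080 to 1829 CPM, and in libraries 1 to 4 were at 1351 CPM or more; the cluster of high counts held 2284 CPM and the other endothelial sub-clusters 386 and 30.9 CPM. The highest value outside these classes was 368 CPM, in ependymal nuclei of library 2; ependymal nuclei held 306 to 368 CPM in libraries 1 to 4 and 27.7 to 79.9 in libraries 5 to 8.

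LAMA4, the alpha chain of the vessel laminin 411, was spread evenly over the endothelial, mural and fibroblast classes. It ran from 433 through a median of 802 to 1011 CPM in endothelial nuclei, was 377, 1036 and 970 CPM in mural nuclei of libraries 1, 5 and 7, and ran from 597 through a median of 770 to 1430 CPM in fibroblast nuclei, with all 3 ranges overlapping. Precursors were the next class, at 241 to 386 CPM with a median of 321, of which only the top of the range reached the lowest mural library. LAMA3, known from the laminins of epithelia, had another order: 270 CPM in granule neurons (216 to 308 over libraries, median 266) and 182 CPM in endothelial nuclei (110 to 364, median 209), which overlapped, against 21.4 CPM in fibroblast and 25.7 in mural nuclei.

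LAMB1, a common beta chain, was at 341 CPM in fibroblast nuclei, 103 in mural nuclei, 92.6 in granule neurons and 83.3 in endothelial nuclei. LAMC1, the gamma chain of most laminins, reached 10 CPM in all 15 classes, from 12.2 CPM in oligodendrocytes to 272 in mural nuclei, with precursors at 120. LAMB2, the beta chain of vessel and synaptic basement membranes, stayed between 34.5 and 66.7 CPM in the mural, fibroblast, endothelial and ependymal classes, was 23.3 CPM in astrocytes and at most 2.8 CPM in every neuron class. LAMC3 was at 410 CPM in mural, 232 in fibroblast and 108 in endothelial nuclei and at no more than 9.5 CPM in any other class. LAMB3, a beta chain that joins LAMA3 in epithelia, was at 4.0 CPM in granule neurons and 1.4 CPM in endothelial nuclei.

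The fibrillar chains of type I and type III collagen were highest in the fibroblast nuclei. COL1A1 and COL1A2 form type I collagen, the main collagen of the meninges and of skin and bone, and COL3A1 forms type III collagen, found beside it in vessel walls. COL1A2 ran from 588 through a median of 873 to 984 CPM in fibroblast nuclei, against 22.2 to 355 CPM in endothelial nuclei and 83.8, 317 and 0 CPM in mural nuclei of libraries 1, 5 and 7. No endothelial or mural library reached the lowest fibroblast library. COL1A1 ran from 224 through a median of 538 to 941 CPM in fibroblast nuclei and from 0 to 226 CPM in endothelial nuclei, where library 6 passed the lowest fibroblast library. COL3A1 was at 322 CPM in fibroblast nuclei (214 to 468 over libraries, median 340), 118 in mural and 67.1 in endothelial nuclei. Outside these 3 classes COL1A1, COL1A2 and COL3A1 stayed at or below 3.2 CPM in every named class. An endothelial sub-cluster of 198 nuclei, 32 of them from the fibroblast cluster, held COL1A1, COL1A2 and COL3A1 at 177, 226 and 140 CPM. The sub-cluster of 128 nuclei held 0, 3.43 and 37.8 CPM, and that of 117 nuclei 1.29, 32.1 and 39.8 CPM. The part of fibroblast RNA in the endothelial values was not tested.

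The minor fibrillar chains went beyond the vascular and fibroblast classes. COL11A1, which together with type V chains sets the width of fibrils, was at 914 CPM in fibroblast nuclei (495 to 1166, median 942), 671 in newly formed oligodendrocytes and 641 in precursors (451 to 681, median 570), and at 354 CPM in pyramidal and 344 CPM in granule neurons. Fibroblast and precursor ranges overlapped. COL5A2 was at 467 CPM in mural and 363 in fibroblast nuclei, COL5A1 at 164 in fibroblast, 96.0 in ependymal nuclei and 86.8 in astrocytes, and COL5A3 at 113 in mural nuclei, 69.3 in astrocytes and 60.8 in precursors. COL27A1, a fibrillar chain of cartilage, was highest in astrocytes at 58.3 CPM, running from 43.5 through a median of 57.9 to 93.4 over libraries, next to 48.7 CPM in fibroblast nuclei. COL24A1, a fibrillar chain known from bone, was highest in inhibitory neurons at 173 CPM (129 to 223 over libraries, median 187), above pyramidal neurons at 63.5.

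Type VI collagen, which forms beaded filaments around cells, was divided by chain. COL6A1 and COL6A2 were found in fibroblast nuclei (35.1 and 244 CPM) and mural nuclei (20.5 and 205 CPM), whereas COL6A3 was at 234 CPM in fibroblast nuclei with no UMI in mural nuclei, a count that allows up to 15.4 CPM at 3 counts. The fibril-associated chains COL12A1 and COL14A1 were opposite: COL12A1 was at 372 CPM in fibroblast and 61.6 in mural nuclei, COL14A1 at 200 CPM in mural and 19.5 in fibroblast nuclei, with 106 CPM in newly formed oligodendrocytes. COL18A1, the source of endostatin and a chain of vessel basement membranes, was at 487 CPM in fibroblast (361 to 557 over libraries), 201 in endothelial (93.3 to 269) and 185 in mural nuclei (144 to 272). The fibroblast libraries lay above every endothelial and mural library. COL13A1, a transmembrane collagen of the neuromuscular synapse, was at 162 CPM in fibroblast nuclei and 13.7 CPM or less in all other classes.

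**Figure D2:**
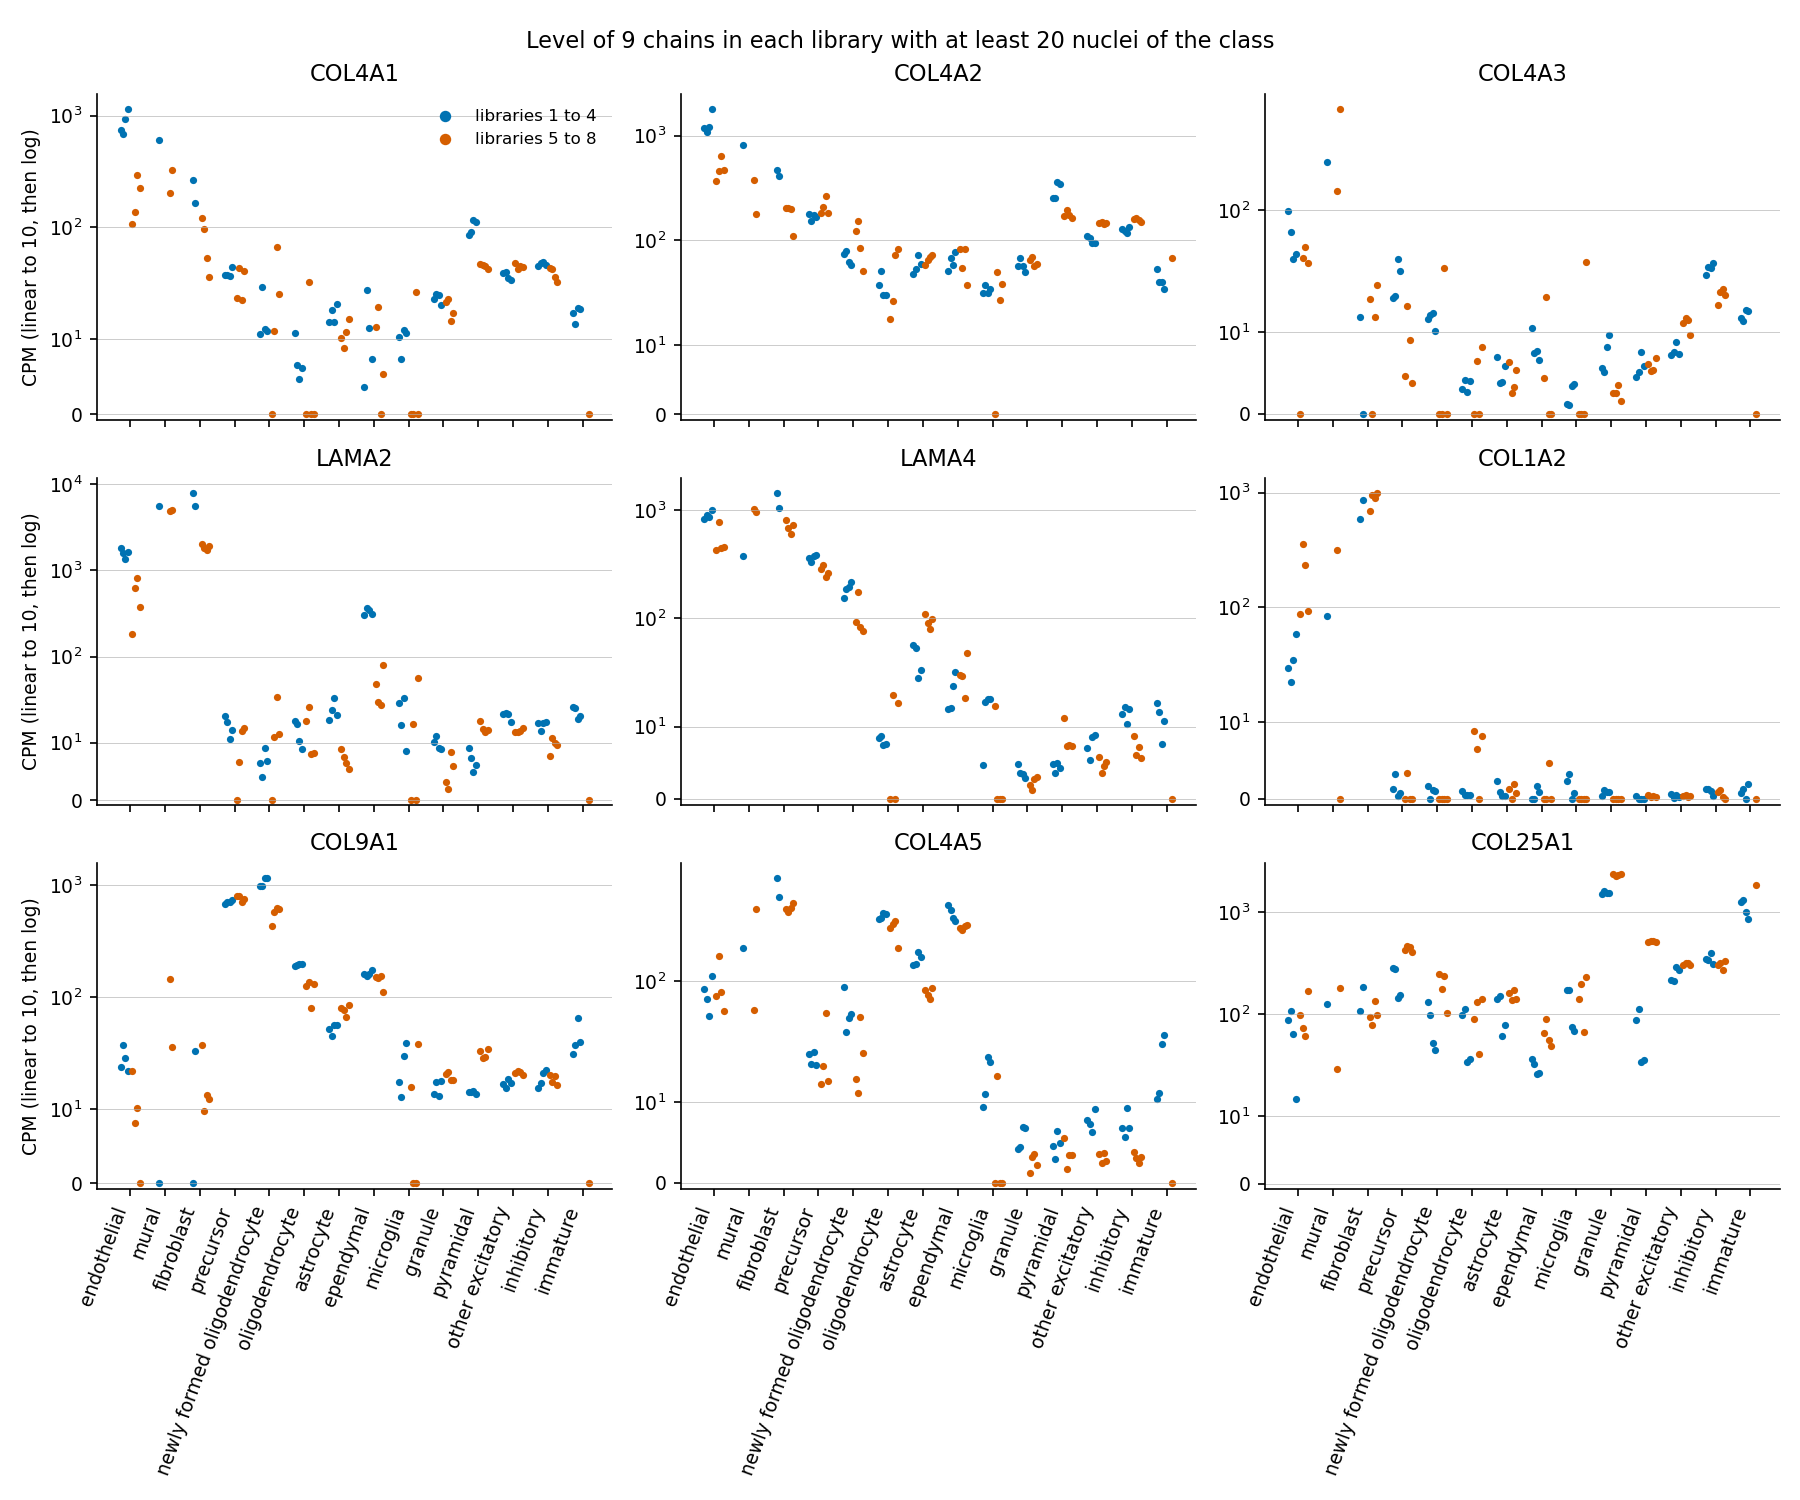
CPM of 9 chains in each class, with 1 point for each library that held at least 20 nuclei of the class (libraries 1 to 4 in blue, 5 to 8 in orange); the vertical axis is linear up to 10 CPM and logarithmic above. COL4A1 in endothelial nuclei separates by set (685 to 1149 CPM against 108 to 293), as does COL25A1 in pyramidal neurons, while LAMA4 in precursors stays between 241 and 386 CPM.

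To set vessels and fibroblasts against neurons, the 837 endothelial, mural and fibroblast nuclei were summed and compared with 29094 neurons. A chain was measured at 10 CPM or more on either side, and it was called higher where the ratio was at least 2-fold and had the same direction in every library that could be compared. Of 37 chains measured, 22 were higher in vascular and fibroblast nuclei and 4 in neurons. Over all 10607 genes measured, 18.5% were called higher on the vascular side and 14.5% on the neuron side. The median log2 ratio was 2.57 over the chains and 0.27 over all genes. Ratios pool the nuclei of all 8 libraries, also of libraries with too few nuclei to compare direction. The intervals given with ratios are exact 95% intervals that cover counting error only.

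The type I and III chains led: COL1A2 was 613-fold higher (interval 492 to 770), COL1A1 453-fold (350 to 592) and COL3A1 403-fold (311 to 528). LAMA2 was 149-fold (142 to 156) and LAMA4 122-fold higher (113 to 130), and LAMB2 was 69-fold higher (52.2 to 90.9). All 3 measured beaded filament chains were higher, COL6A1 by 403-fold (181 to 1014), COL6A3 by 53.7-fold and COL6A2 by 18.3-fold. Of the 6 type IV chains, 5 were higher, from COL4A5 at 37.8-fold through COL4A1 at 10.9-fold (10.3 to 11.7) to COL4A2 at 5.6-fold (5.34 to 5.88). COL4A1 was at a log2 ratio of 3.92 in libraries 1 to 4 alone and 1.87 in libraries 5 to 8 alone, COL4A2 at 3.07 and 1.14, and COL1A2 at 7.84 and 10.31, while LAMA2 (7.29 and 6.94) and LAMA4 (6.89 and 6.83) moved less between the sets. In the same order COL1A1 was 249.8-fold and 779-fold, COL3A1 252-fold and 632-fold, COL6A1 211-fold and 1046-fold and COL4A5 21.0-fold and 75.2-fold higher. Without the endothelial cluster of high counts COL1A1 was 701-fold, COL6A3 83.4-fold, COL13A1 20.8-fold, COL4A1 6.02-fold, COL5A3 4.78-fold and COL4A2 3.46-fold higher.

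Higher in neurons were COL24A1 by 5.56-fold (3.9 to 8.25), COL25A1 by 4.79-fold (4.18 to 5.52), COL19A1 by 4.08-fold (2.8 to 6.2) and COL26A1 by 2.44-fold (2.02 to 2.98). COL25A1 is a transmembrane collagen whose shed part was first found in amyloid plaques, and COL19A1 is a fibril-associated collagen described in interneurons and at synapses. Of these 26 calls, 21 held under every alternative tried. Those of COL4A6 and COL21A1 ended when only nuclei of at least 1000 UMIs and 500 genes were used, that of COL4A3 without the endothelial cluster of high counts (4.71-fold), that of LAMB1 with TMM scaling (log2 ratio 0.98), and that of COL26A1 in libraries 5 to 8 alone (log2 ratio -0.64) and without that cluster (-0.76).

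**Figure D3:**
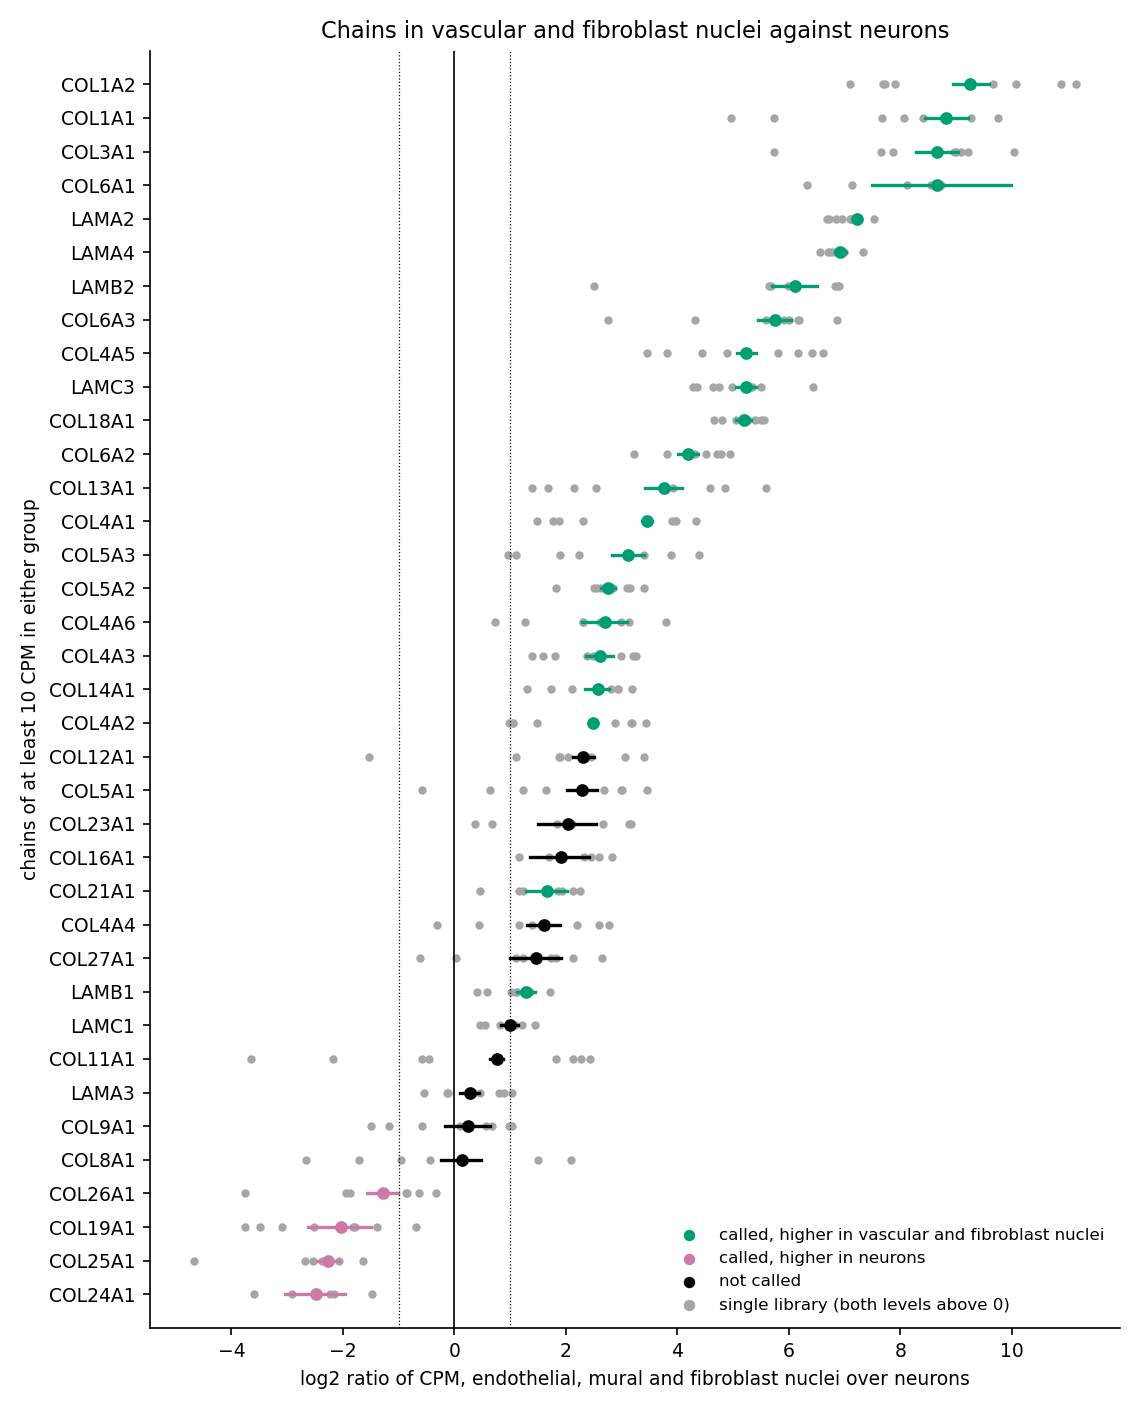
Log2 ratio of CPM in endothelial, mural and fibroblast nuclei to CPM in neurons for each chain measured (black or coloured points with 95% counting intervals; grey points are single libraries; dotted lines mark 2-fold). 22 chains in green are higher in vascular and fibroblast nuclei, 4 in pink are higher in neurons, and those in black were not called.

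The genes that make, anchor and bind these chains were taken from 6 lists of 118 genes. On the same comparison 12 of 23 measured matrix receptors were higher in vascular and fibroblast nuclei and none in neurons. ITGA1, the alpha chain of the collagen-binding integrin alpha1 beta1, was at 552 against 1.72 CPM (321-fold), and BCAM, a laminin receptor, was 38-fold higher. Of 16 measured basement membrane partners, 9 were higher on the vascular side and none in neurons; FN1, fibronectin, was at 759 against 8.33 CPM. Of 21 measured genes of collagen maturation, 7 were higher on the vascular side and 3 in neurons. SERPINH1, the collagen chaperone of the endoplasmic reticulum, was 193-fold higher in vascular nuclei, and P4HA3, a prolyl hydroxylase subunit, was 6.1-fold higher in neurons. The small leucine-rich proteoglycans BGN (254-fold) and DCN (24.5-fold), which bind collagen fibrils, were higher on the vascular side, and TNR, tenascin-R of perineuronal nets, was 6.27-fold higher in neurons. DCN is also among the fibroblast markers and FN1 among the pyramidal markers that named the classes.

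Among these 3 classes, endothelial nuclei were set against fibroblast and mural nuclei together. Of 37 chains measured, 2 were higher in endothelial and 20 in fibroblast and mural nuclei in the same direction in 6 of 6 libraries; over all genes 5.58% and 6.4% were called. The median log2 ratio was -1.52 over the chains and -0.21 over all genes. LAMA3 was 8.06-fold higher in endothelial nuclei (4.88 to 14.3) and COL4A2 2.9-fold (2.54 to 3.33); COL4A1 was 2.86-fold higher but in 4 of 6 libraries only. On the other side COL13A1 was 86.5-fold (23.2 to 726), COL11A1 9.27-fold (7.54 to 11.5), COL12A1 8.82-fold and COL1A2 7.81-fold higher in fibroblast and mural nuclei. LAMA2 was 2.86-fold higher there (2.7 to 3.04), a log2 ratio of -1.52 that became -3.99 without the endothelial cluster of high counts.

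The sizes of several of these ratios depended on how the nuclei were chosen. LAMA3 was 4.10-fold higher in endothelial nuclei with nuclei of at least 1000 UMIs and 500 genes, 4.47-fold with doublets kept and 3.83-fold with collagen and laminin genes used for clustering, and it was 4.62-fold in libraries 1 to 4 and 15.2-fold in libraries 5 to 8. COL1A2 was 26.8-fold, 18.7-fold and 20.6-fold higher in fibroblast and mural nuclei under the same 3 alternatives, 4.62-fold with libraries weighted equally, and 15.1-fold and 3.46-fold in the 2 sets. COL1A1 was 49.7-fold, 24.3-fold and 29.4-fold under those 3 alternatives. In the main setting 32 nuclei of the fibroblast cluster lay in an endothelial sub-cluster. Without the cluster of high counts COL1A2 was 4.68-fold, COL11A1 6.14-fold, COL6A3 5.63-fold, COL5A2 3.69-fold and LAMC3 15.1-fold higher in fibroblast and mural nuclei, and the log2 ratio of COL18A1 was -1.63. COL16A1 was then 31.5-fold, COL6A1 21.7-fold, COL15A1 18.1-fold, COL21A1 11.8-fold, COL27A1 10.2-fold and COL6A2 6.50-fold higher there, and COL1A1 (3.35-fold) and COL24A1 (2.96-fold) were not called. Of the endothelial sub-clusters left, that of 198 nuclei held 1 UMI of COL6A1 and 0 of COL16A1, and that of 128 nuclei 0 and 1.

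Of these 22 calls, 13 held under every alternative. COL4A2 fell below 2-fold with libraries weighted equally (log2 ratio 0.95), in libraries 1 to 4 alone (0.88) and without the cluster of high counts (0.87). COL18A1, at 2.01-fold, fell below 2-fold without any 1 of libraries 5, 6, 7 and 8 (1.86-fold, 1.94-fold, 1.92-fold and 1.88-fold), and COL5A2 was 1.97-fold with TMM scaling. In libraries 1 to 4 alone COL18A1 was 1.30-fold and not called, and in libraries 5 to 8 alone it was 3.75-fold and called. COL1A1 and COL24A1 were not called with TMM scaling or without the cluster of high counts, COL6A1, COL6A2, COL16A1 and COL27A1 not with doublets kept. Values of 5 chains moved by over 1.5 times with 1 library left out: COL24A1 (3.13-fold) was 6.97-fold and COL4A6 (14-fold) 9.22-fold without library 2, COL1A1 (7-fold) was 11.0-fold and COL16A1 (66.7-fold) 18.0-fold without library 6, and COL13A1 was 151-fold without library 3 and 155-fold without library 7. The 66.7-fold of COL16A1 rests on 1 endothelial UMI, in the sub-cluster of 128 nuclei, with 0 in those of 198 and 117 nuclei. Among the partners, HMCN1, a hemicentin of basement membranes, was 13.7-fold and the laminin-binding integrin chain ITGA6 11.3-fold higher in endothelial nuclei. FBLN1, a fibulin that is also a fibroblast marker, was 10.7-fold and ITGA8 11.8-fold higher in fibroblast and mural nuclei.

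The direction between fibroblast and mural nuclei could be compared in libraries 1, 5 and 7. The ratios pool the nuclei of all 8 libraries. Libraries 1 to 4 gave 59 fibroblast and 51 mural nuclei, and libraries 5 to 8 gave 202 and 82. Of 37 chains, 14 were higher in fibroblast and 4 in mural nuclei; over all genes 8.9% and 5.01% were called, and the median log2 ratio was 0.66 over the chains and 0.02 over all genes. Among simulated unchanged genes, with counting error only and 1 profile shared by all libraries, the same rule called 4.04% in this comparison. Higher in fibroblasts were COL1A1 by 46.2-fold (12.6 to 383), COL1A2 by 8.02-fold (5.13 to 13.3), COL6A3 by at least 15.2-fold, COL13A1 by at least 10.5-fold, COL16A1 by 11.8-fold and COL11A1 by 6.15-fold, where at least stands for a ratio against 3 counts in the class with no UMI. The 11.8-fold of COL16A1 rests on 1 mural UMI, fewer than those 3 counts. Higher in mural nuclei were COL4A4 by at least 36.8-fold, COL4A3 by 28.9-fold (12.6 to 81.7), COL14A1 by 10.3-fold (5.03 to 23.1) and COL4A1 by 4.06-fold (2.91 to 5.69). LAMA2, LAMA4 and LAMC1 were not called.

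Of these 18 calls, 11 held under every alternative and the other 7 were all fibroblast chains, COL1A1, COL1A2, COL3A1, COL4A5, COL5A1, COL24A1 and LAMB1. The ratios of the type I and III chains were smaller under 3 alternatives that redraw the classes. COL1A1 was 2.06-fold higher with nuclei of at least 1000 UMIs and 500 genes, 2.91-fold with doublets kept and 1.97-fold with collagen and laminin genes used for clustering, and the log2 ratio of COL3A1 was 0.26, 0.59 and 0.12; none of these was called. COL1A2 was 2.11-fold, 2.68-fold and 2.14-fold, called in the first and last. The mural chains kept their calls there, with COL4A3 at 18.7-fold, 15.4-fold and 18.0-fold and COL14A1 at 19.0-fold, 19.1-fold and 20.9-fold, and COL6A3 stayed at 5.52-fold, 7.56-fold and 5.54-fold in fibroblasts. Without library 1, COL24A1 was 1.68-fold and COL4A5 1.76-fold higher and neither was called, and COL4A5 was 1.82-fold without library 5. COL4A6 (8.55-fold) was 5.54-fold without library 1, 16.7-fold without library 6 and 14.3-fold without library 8; COL1A2 was 15.3-fold and COL14A1 17.7-fold without library 5, COL16A1 was 3.44-fold without library 7, and COL24A1 (3.04-fold) was 5.35-fold without library 2 and 4.89-fold without library 6. Of 16 basement membrane partners, 6 were higher in fibroblasts, led by the perlecan gene HSPG2 at 23.2-fold, and 4 in mural nuclei, led by the agrin gene AGRN at 13-fold. ADAMTS2, which removes the amino-terminal propeptide of type I collagen, was 33.4-fold higher in fibroblasts.

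COL9A1 and COL9A2, chains of type IX collagen, COL11A1 and LAMA4 were found in oligodendrocyte precursors, and none of them was highest there. COL9A1, a fibril-associated chain known from cartilage, ran from 679 through a median of 726 to 806 CPM in precursors. Newly formed oligodendrocytes ran from 431 through 798 to 1160 CPM, with 974 to 1160 in libraries 1 to 4 and 431 to 623 in libraries 5 to 8, so that their order against precursors differed between the 2 sets. Oligodendrocytes held 80.2 to 199 CPM, below every precursor library. COL20A1, another fibril-associated chain, was at 31.3 CPM in precursors, 25.4 in cycling nuclei and 24.6 in oligodendrocytes.

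Against neurons, 8 of 26 measured chains were higher in precursors and 6 in neurons, where all genes gave 10.2% and 13.5%. The median log2 ratio was 0.38 over the chains and 0.05 over all genes. COL9A2 was 65.9-fold (51.1 to 85.9), LAMA4 54.4-fold (51.2 to 57.9), COL9A1 35.9-fold (34.6 to 37.3), COL5A3 10.5-fold and COL11A1 3.9-fold higher (3.8 to 4.01) in precursors. Higher in neurons were COL26A1 by 7.95-fold, COL24A1 by 4.35-fold, LAMA3 by 3.7-fold, COL14A1 by 3.46-fold, LAMB1 by 3.24-fold and COL19A1 by 2.15-fold. COL18A1, 2.07-fold higher in precursors, fell to 1.83-fold to 1.93-fold without any 1 of libraries 5 to 8 and was then not called, and COL19A1 was not called in libraries 1 to 4 alone (log2 ratio -0.97). COL9A2 was 40.6-fold higher in libraries 1 to 4, 151-fold in libraries 5 to 8 and 156-fold with 5% free RNA removed, and COL26A1 was 4.69-fold and 13.2-fold higher in neurons in the 2 sets. Of 9 measured proteoglycan genes, 6 were higher in precursors and none in neurons. CSPG4 and VCAN, both also precursor markers, led at 263-fold and 40-fold. Of 19 measured genes of collagen maturation, 8 were higher in precursors and 2 in neurons, among them FKBP10, a collagen chaperone, at 10.6-fold in precursors.

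Between precursors and oligodendrocytes, 8 of 25 measured chains were higher in precursors and 1 in oligodendrocytes, beside 13% and 8.03% of all genes; the median log2 ratio was 1.61 over the chains and 0.08 over all genes. LAMA4 was 45.8-fold (38.7 to 54.4), COL5A3 37.2-fold, LAMC1 9.8-fold (8.49 to 11.4), COL11A1 8.53-fold, COL4A1 6.18-fold, COL4A2 5.18-fold, COL25A1 4.26-fold and COL9A1 3.71-fold higher in precursors. COL4A5 went the other way, 15.2-fold higher in oligodendrocytes (13.3 to 17.4). All 9 calls held under every alternative, though not their sizes: COL5A3 was 4.90-fold in libraries 5 to 8, 10.2-fold with libraries weighted equally and 59.7-fold with 5% free RNA removed. LAMA4 was 28.4-fold in libraries 5 to 8 and 13.3-fold at a clustering resolution of 2.0, where LAMC1 was 6.23-fold, and COL11A1 was 3.88-fold, COL4A1 3.47-fold and COL9A1 6.49-fold in libraries 5 to 8. Of 13 measured basement membrane partners, 9 were higher in precursors and none in oligodendrocytes, led by FRAS1 at 11.1-fold, and ITGA2, the alpha chain of the collagen receptor integrin alpha2 beta1, was 22.2-fold higher in oligodendrocytes.

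Astrocytes, whose endfeet lie on the vessel basement membrane, were higher than neurons in 9 of 27 measured chains and lower in 12, where all genes gave 17.0% and 14.6%. The median log2 ratio was -0.25 over the chains and 0.16 over all genes. Higher in astrocytes were LAMB2 by 39.5-fold, COL9A2 by 36.9-fold, COL4A5 by 26-fold (24.2 to 27.9), COL5A3 by 11.9-fold, LAMA4 by 9.18-fold, COL27A1 by 8.19-fold (7.58 to 8.85), COL5A1 by 7.65-fold, COL16A1 by 4.89-fold and COL9A1 by 2.99-fold. Among those higher in neurons were COL26A1 by 10-fold, COL19A1 by 5.74-fold, COL4A4 by 4.64-fold, COL4A1 by 2.99-fold and COL4A2 by 2.39-fold. All 21 calls held under every alternative, with COL9A2 at 23.7-fold and 67.5-fold and LAMA4 at 5.78-fold and 16.5-fold in libraries 1 to 4 and 5 to 8. Of 20 measured matrix receptors, 15 were higher in astrocytes and 2 in neurons; ITGB4, the laminin-binding integrin beta4 chain, was 92.1-fold and SDC4, a syndecan, 86.5-fold higher in astrocytes.

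Precursors and astrocytes differed in 11 of 27 measured chains, 6 higher in precursors and 5 in astrocytes, beside 7.65% and 10.9% of all genes, with a median log2 ratio of 0.74 over the chains and -0.09 over all genes. COL20A1 was 21.4-fold, COL9A1 12-fold (11.3 to 12.8), LAMA4 5.93-fold, COL11A1 3.4-fold, COL4A2 2.88-fold and COL4A1 2.58-fold higher in precursors. LAMB2 was 8.78-fold, COL27A1 8.39-fold, COL4A5 5.49-fold, COL5A1 4.47-fold and LAMA3 2.23-fold higher in astrocytes. The log2 ratio of LAMA4 was 3.07 in libraries 1 to 4 and 1.54 in libraries 5 to 8; its astrocyte level was 28.1 to 56.6 CPM in the first set and 79.5 to 111 in the second. Of 18 measured matrix receptors, 10 were higher in astrocytes and 1 in precursors. The comparisons with neurons share the same neurons, and each class above enters more than 1 comparison, so their counts are not independent of each other.

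Ependymal nuclei, the ciliated lining of the ventricles, held COL21A1, a fibril-associated chain, at 225 CPM (143 to 251 over libraries, median 210), above the 74.1 CPM of fibroblast nuclei, and COL16A1, another fibril-associated chain, at 81.6 CPM next to 60.4 in fibroblasts. They were also the next class after mural, fibroblast and endothelial nuclei for LAMA2 and among the 3 highest classes for COL4A5.

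Among neurons, COL25A1 set granule and immature neurons apart, at 1753 CPM in granule neurons and 1203 in immature neurons, against 282 to 321 in the other 3 neuron classes. Over 8 libraries it ran from 1510 through a median of 1918 to 2353 CPM in granule neurons. Over the 5 libraries with 20 immature nuclei it ran from 853 through 1243 to 1845 CPM in immature neurons, and the 2 ranges overlapped. Of the immature nuclei, 2087 came from libraries 1 to 4 and 55 from libraries 5 to 8. Pyramidal neurons held 33.8 to 111 CPM in libraries 1 to 4 and 504 to 517 CPM in libraries 5 to 8. Different clusters filled this class in the 2 sets: cluster 14, with 1521 nuclei from libraries 1 to 4 and 1 from the others, held 57.2 CPM, and cluster 11, with 21 and 1788 nuclei, held 598. Granule neurons were likewise divided into cluster 9 (2104 and 13 nuclei) at 1551 CPM and cluster 21 (12 and 958 nuclei) at 2297. Whether this spread follows the library sets or the kinds of neuron caught in each cannot be told apart here.

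Granule neurons, named from 9 markers of which 7 reached 10 CPM, were set against pyramidal neurons; their summed granule markers were 2087 against 342 CPM, and the pyramidal markers 1686 against 3751 CPM. The granule markers also summed to 2132 CPM in ependymal, 2304 in mural, 2400 in immature and 2718 in cycling nuclei. They summed to 3946 CPM in precursor and 10500 in newly formed oligodendrocyte nuclei, so the granule name was used only among excitatory neurons. The pyramidal markers summed to 3387 CPM in the other excitatory neurons, near the 3751 CPM of pyramidal neurons. By this sum the pyramidal class is little separated from the other excitatory neurons. Of 17 measured chains, 3 were higher in granule and 4 in pyramidal neurons, beside 5.31% and 5.75% of all genes, with a median log2 ratio of -0.32 over the chains and 0.02 over all genes. COL13A1 was 30.6-fold, COL25A1 5.7-fold (5.58 to 5.82) and COL19A1 4.67-fold higher in granule neurons, and COL5A1 was 8.24-fold, COL4A2 3.97-fold, COL4A1 3.21-fold and COL24A1 2.09-fold higher in pyramidal neurons. The log2 ratio of COL25A1 was 4.77 in libraries 1 to 4 and 2.17 in libraries 5 to 8. COL13A1 was not called in libraries 1 to 4 alone and was 54.0-fold in libraries 5 to 8, and COL24A1 fell to 1.89-fold without library 1 and 1.96-fold without library 2 and was then not called. Of the lists, ITGA8 was at 547 against 8.0 CPM and TLL1, a procollagen C-proteinase, 37.2-fold higher in granule neurons, while FREM2 was 22.1-fold and ITGA6 9.21-fold higher in pyramidal neurons.

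Between 19901 excitatory and 7051 inhibitory neurons, 10 of 21 measured chains were called, 2 on the excitatory side and 8 on the inhibitory side; all genes gave 6.11% and 6.41%, and the median log2 ratio was -0.12 over the chains and -0.11 over all genes. COL26A1 was 2.99-fold (2.86 to 3.14) and COL11A1 2.74-fold higher in excitatory neurons. COL21A1 was 7.22-fold (6.61 to 7.9), COL19A1 3.34-fold, COL24A1 3.14-fold (3.05 to 3.24), COL6A2 2.96-fold, COL4A3 2.92-fold, COL12A1 2.82-fold, COL4A4 2.65-fold and COL14A1 2.46-fold higher in inhibitory neurons. The call for COL4A4 ended in libraries 5 to 8 alone (log2 ratio -0.52, against -2.97 in libraries 1 to 4). NTN4, a netrin that binds laminin, was 8.32-fold and FREM2 6.15-fold higher in inhibitory neurons.

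These class values hid larger differences between clusters of 1 class. COL24A1 was at 270, 254 and 234 CPM in inhibitory clusters 13, 19 and 41 and at 42.3 in inhibitory cluster 6. COL19A1 was at 265 CPM in cluster 13 (182 to 316 over libraries), 119 in cluster 6 and 174 in granule cluster 21. COL21A1 was at 107 CPM in inhibitory cluster 22 (66.4 to 143) and at 1.02 and 1.68 CPM in clusters 13 and 19, so the inhibitory clusters highest in COL24A1 were not those highest in COL21A1. COL26A1 was at 492 CPM in excitatory cluster 10 (482 to 532) and at 6.46 and 5.59 in excitatory clusters 16 and 27, where LAMA3 stood at 217 and 189 CPM. COL4A3 and COL4A4 were at 101 and 203 CPM in cluster 36 (92.4 to 110 and 188 to 215 over libraries), above their level in any neuron class as a whole. Mural nuclei held 339 and 216 CPM, so COL4A4 in cluster 36 lay near its mural level.

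**Figure D4:**
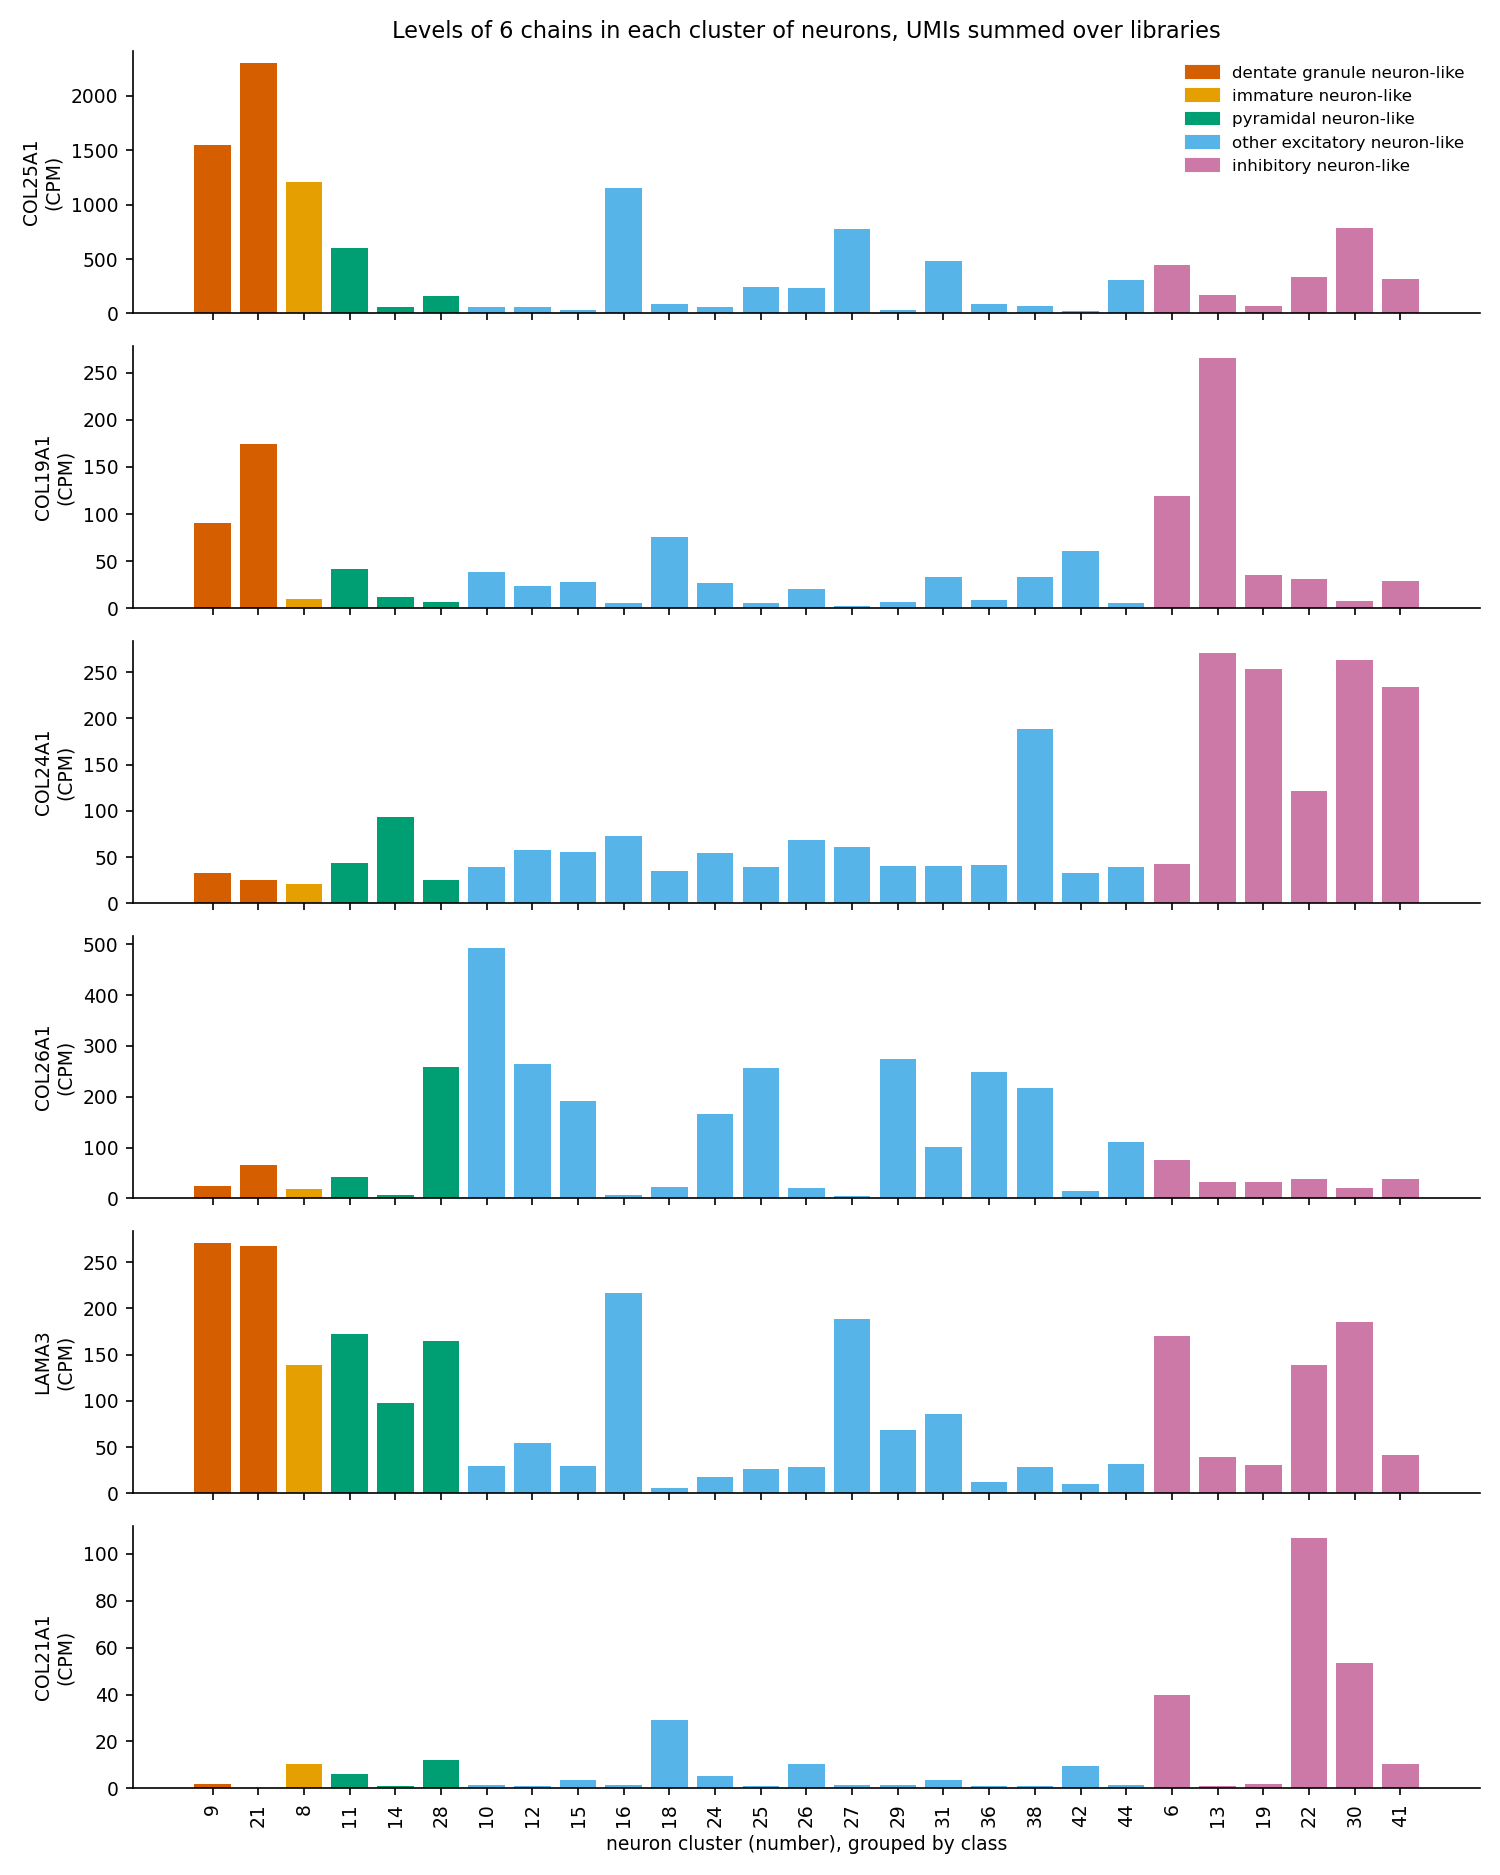
CPM of COL25A1, COL19A1, COL24A1, COL26A1, LAMA3 and COL21A1 in each cluster of neurons (bars from 0, coloured by class). COL25A1 is highest in granule clusters 21 and 9 (2297 and 1551 CPM), COL26A1 in cluster 10 (492 CPM), and COL24A1 in cluster 13 (270 CPM).

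Chains that are built into 1 protein were set side by side over the 45 clusters. Rank correlations are given as a description; the clusters share libraries and differ in depth. COL4A1 and COL4A2, neighbouring genes in the RefSeq order, had a rho of 0.92 and reached 10 CPM together in 14 classes. COL4A3 and COL4A4, also neighbours, had a rho of 0.76 and met in 6 classes, and COL9A1 and COL9A2 had a rho of 0.70 and met in 4 classes, while COL9A1 reached 10 CPM in 15. The other pairs were looser: rho was 0.24 for COL4A5 and COL4A6, 0.37 for COL1A1 and COL1A2, 0.35 for the neighbours COL6A1 and COL6A2, 0.05 for LAMB1 and LAMC1 and 0.14 for LAMB2 and LAMC1. For COL1A1 and COL1A2 most clusters lay near 0 for both chains, and both were highest in the fibroblast cluster. COL4A5 reached 10 CPM in 11 classes and COL4A6 in 3, and in all 3 of those COL4A5 was present too. In 1 of these, the mural nuclei, COL4A6 had 2 UMIs.

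**Figure D5:**
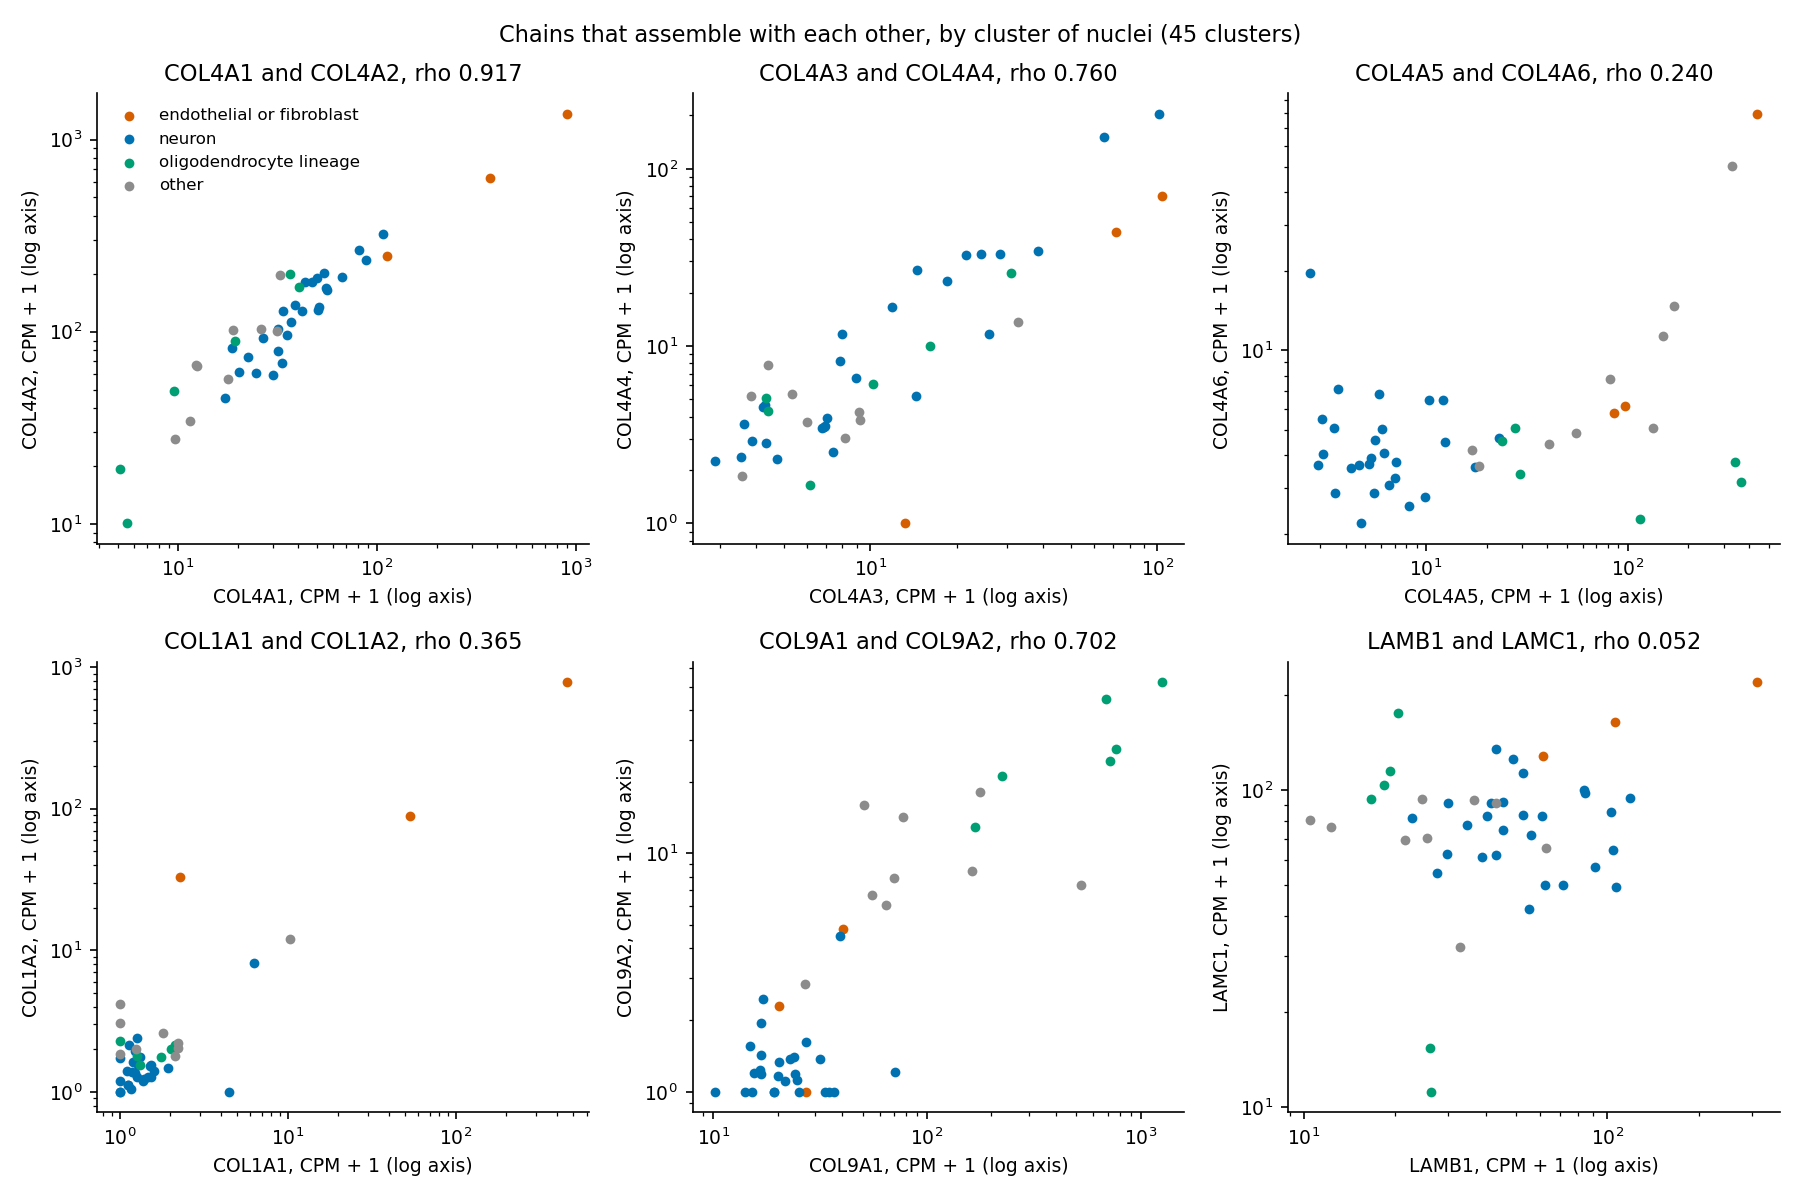
CPM plus 1 of 6 pairs of partner chains in 45 clusters (1 point per cluster, coloured by family of classes, both axes logarithmic). COL4A1 and COL4A2 lie along 1 line (rho 0.92), whereas COL4A5 is spread over clusters that hold little COL4A6 (rho 0.24).

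The share of nuclei with a UMI gave the same order as CPM for the leading chains when each nucleus was thinned to 1000 UMIs, which left out 25 mural, 38 fibroblast and 59 endothelial nuclei of lower depth. LAMA2 was found in 96.3% of mural nuclei (exact binomial interval 90.8 to 99.0), 79.4% of fibroblast nuclei (73.5 to 84.5) and 31.5% of endothelial nuclei (26.9 to 36.4), against 1.0 to 2.1% in the neuron classes. COL1A2 was found in 49.3% of fibroblast nuclei (42.6 to 56.1), 5.7% of endothelial nuclei and 0.050% of astrocytes, a class that should lack type I collagen and serves as background. COL25A1 was found in 79.3% of granule neurons (77.8 to 80.7), 57.3% of immature neurons and 4.6% of ependymal nuclei, and COL9A1 in 63.7% of newly formed oligodendrocytes, 47.5% of precursors and 1.5% of granule neurons. Before thinning the shares were 96.2%, 81.2% and 36.3% for LAMA2 in mural, fibroblast and endothelial nuclei, 62.1% for COL1A2 in fibroblast nuclei, 99.4% for COL25A1 in granule neurons and 78.7% for COL9A1 in precursors. Median depth before thinning was 1402 UMIs in mural, 1820 in fibroblast and 2310 in endothelial nuclei, 2125 in astrocytes, 2481 in ependymal nuclei, 2627 in precursors, 3801 in newly formed oligodendrocytes, 1856.5 in immature and 6659 in granule neurons.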

How the data were processed

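The deposited UMI counts are raw whole numbers made with Cell Ranger 3.1.0, per the file headers. CASAVA 1.8 and Seurat are named in the submitters' processing notes, and the genome build is not given in the sources used here. Nuclei below 500 UMIs or 300 genes were dropped, predicted doublets were removed by their likeness to simulated ones, and Leiden clustering (leidenalg 0.10.2, resolution 1.0) used 2000 variable genes without collagen or laminin genes, 30 components and 20 neighbours. Clusters were named from 178 markers of 18 types; the naming score was settled after the data were seen, and 1463 nuclei stayed unnamed. UMIs were summed per class and library and given as CPM. Classes were compared by the ratio of CPM with an exact conditional binomial interval at 95%, with no p-value. TMM factors, which rescale classes to a common bulk of genes, came from edgeR 4.0.16. The calling rule was tested on simulated data of 21748 genes. It recovered 83% of 4-fold changes between fibroblast and mural nuclei and 94 to 100% in the other comparisons. The simulated counts held counting error only, from 1 profile shared by all libraries. The changed genes had a pooled level of at least 2 times the 10 CPM minimum. These figures therefore do not cover differences between libraries or chains nearer the minimum. Any gene at 10 CPM in a class could be named, and the 2 calls of greatest ratio on each side from each pathway list. One chain is not reported here by name. Members and lists were chosen with earlier results of these data known.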

Additional observations from a re-analysis of the deposited data

Results flagged for a closer look

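Among 97 sets of library values tested for a value far from the rest, 6 held 1; chance flags about 1 in 20. For vascular and fibroblast nuclei against neurons, the log2 ratio of LAMB2 was 2.51 in library 3 and 5.65 to 6.90 in the other 7. In the same comparison the log2 ratio of COL25A1 was -4.67 in library 4 and -2.68 to -1.65 elsewhere. For precursors against oligodendrocytes, COL25A1 was at 3.49 in library 7 against 1.30 to 2.24 elsewhere, and COL4A5 at -2.52 in library 7 against -4.30 to -3.66. For precursors against astrocytes, COL4A5 was at -0.37 in library 7 against -2.98 to -1.95, and COL4A1 at 2.29 in library 6 against 0.97 to 1.42. All 6 kept the direction of the other libraries.

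Values also appeared for the 2 chains carried by gene ID only, which no count above includes. COL15A1, like COL18A1 a basement membrane chain with an endostatin-like end, was highest in fibroblast nuclei at 105 CPM, next to 99.7 CPM in immature neurons. COL9A3, the third chain of type IX collagen, was highest in precursors at 43.8 CPM, next to 23.0 in oligodendrocytes.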

How the results depend on the processing

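Of 145 calls of a chain in a comparison (2 gene-ID chains included), TMM scaling ended 7, nuclei of at least 1000 UMIs and 500 genes 9, no removal of doublets 9, collagen and laminin genes used for clustering 7, libraries 5 to 8 alone 4, libraries weighted equally 1 and leaving out 1 library 0 to 3; libraries 1 to 4 alone ended 5 of 126, and leaving out the endothelial cluster of high counts, an alternative added after seeing the data, 5 of 49. None changed direction. Other Leiden resolutions, other minimum levels and removal of 5% free RNA ended none. TMM moved all ratios by -0.31 for vascular nuclei against neurons, 0.24 for endothelial against fibroblast and mural nuclei, -0.13 for precursors against oligodendrocytes and -0.15 for astrocytes against neurons on the log2 scale, and by under 0.1 elsewhere.

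Counts of chains that moved by over 1.5 times were these. Endothelial chains against fibroblast and mural nuclei went from 2 to 1 with libraries weighted equally and to 1 without the cluster of high counts. With no minimum level, chains higher in neurons than in precursors went from 6 to 12, in excitatory than in inhibitory neurons from 2 to 8, and in pyramidal than in granule neurons from 4 to 7. In libraries 5 to 8 alone, mural chains against fibroblasts were 7, neuron chains against precursors 10, precursor chains against astrocytes 10, and granule and pyramidal chains 6 and 7. In libraries 1 to 4 alone, precursor and oligodendrocyte chains were 13 and 3 and precursor chains against astrocytes 11. Leaving out 1 library gave 1 to 2 oligodendrocyte chains against precursors, with 2 without library 6. The cause was not tested; fewer libraries have to share a direction in these subsets. Fibroblast against mural nuclei could not be computed in libraries 1 to 4 alone or at 50 nuclei per library. No paired analysis was possible because the libraries carry no sample label. The 133 mural nuclei limit what can be seen there: 3 counts stand for 15.4 CPM.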

Other observations

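The endothelial, mural and fibroblast nuclei fell into 6 named sub-clusters, and chains differed among sub-clusters of 1 class. The 2 fibroblast sub-clusters, of 193 and 68 nuclei, held COL1A2 at 984 and 298 CPM, COL12A1 at 472 and 50 CPM, COL18A1 at 627 and 33 CPM and LAMC3 at 303 and 0 CPM. COL26A1 (54 and 340 CPM) and COL8A1 (10 and 174 CPM) had the opposite order. The smaller one came from libraries 5 to 8 and was led by SLC6A20 and PRDM6. Of the 3 endothelial sub-clusters, those of 198 and 128 nuclei held COL1A2 at 226 and 3 CPM and LAMA2 at 386 and 31 CPM, and the one of 117 nuclei with high counts held LAMA2 at 2284 CPM and COL4A3 at 103 CPM. LAMA3 was at 148, 295 and 158 CPM in these 3. A further sub-cluster of 62 nuclei was left unnamed for its median doublet score of 0.57, though 12 endothelial markers were detected in it. It held LAMA3 at 477 CPM and COL8A1 at 365 CPM and enters no named class.

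COL6A5 and COL6A6, which were below 10 CPM in every class, were at 57.7 and 29.7 CPM in excitatory cluster 42, of 129 nuclei from libraries 5 to 8, where COL6A2 was at 70.8 CPM. COL28A1 was at 20.1 CPM in cluster 26, and LAMB4 at 17.9 CPM in astrocyte cluster 3. Astrocyte cluster 1 (3957 of 3960 nuclei from libraries 1 to 4) and cluster 3 (3193 of its nuclei from libraries 5 to 8) held COL5A1 at 69.2 and 130 CPM, COL4A5 at 149 and 80.4 CPM and LAMA4 at 36.3 and 94.6 CPM.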
